A study of Mus musculus with 4 samples.

Results

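Imprinted genes are those transcribed mainly from the copy inherited from 1 parent. A list of 42 such genes was followed in Fgf10-positive cells that had been sorted out of a mouse salivary gland, the submandibular gland, and all 42 were found by symbol among the 53465 genes counted. Adult cells came from mice at postnatal day 60 given tamoxifen on days 57 and 58, and pup cells from mice at postnatal day 7 given tamoxifen on days 4 and 5. The dose was 0.1 mg per g. All mice were C57BL/6J and carried the genotype Fgf10CreERT2:Rosa26Tomato fl/fl, in which a Cre recombinase under Fgf10 control switches on a red reporter in cells that express Fgf10 when tamoxifen is given. There were 2 libraries per age. Whether each library is 1 animal, a pool or a repeat is not in the labels, and p-values therefore cover the spread of these libraries only, which may be technical.

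Imprinted genes lie in clusters, and in each cluster a stretch of DNA methylated in the egg or the sperm decides which parental copy is read. Many paternally expressed members promote fetal growth and many maternally expressed ones restrain it. In mice, a network that includes Plagl1, H19, Igf2, Dlk1, Mest, Cdkn1c, Grb10, Peg3 and Ndn is known to be strongly transcribed in growing tissues and to decline after birth. The counts used here carry no allele information, so the parental copy named for each gene is background knowledge. By that knowledge 24 members are read mainly from the paternal copy and 18 from the maternal copy. Imprinting was marked here as limited to some tissues or isoforms for 10 members. They are Dhcr7, Copg2, Ube3a, Grb10, Ddc, Gnas, Blcap, Ppp1r9a, Asb4 and Inpp5f. The marking may be incomplete, since other members may also be imprinted only in some tissues. The members fall into 18 loci on 11 chromosomes, and 18 of the 42 lie on chromosome 7. There are 35 protein-coding and 7 noncoding members.

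Promoter windows of 300 bases (250 before and 50 after the annotated start, from RefSeq on GRCm38.p6) were at hand for 36 members. The 4 below belong to genes with large differences between the ages. Each is written 5′ to 3′ along the gene's own strand, and capitals mark TGCCGC or its reverse complement GCGGCA, the letters that ZFP57, a zinc finger protein that protects imprints, binds when they are methylated.
Peg3, chr7:6730370-6730669, minus strand: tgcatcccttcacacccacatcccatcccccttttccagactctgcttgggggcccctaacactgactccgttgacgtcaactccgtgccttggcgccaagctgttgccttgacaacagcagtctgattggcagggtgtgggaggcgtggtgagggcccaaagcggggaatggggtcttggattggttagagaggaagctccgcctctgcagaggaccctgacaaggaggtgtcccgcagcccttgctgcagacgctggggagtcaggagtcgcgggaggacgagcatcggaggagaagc
Zim1, chr7:6696383-6696682, minus strand: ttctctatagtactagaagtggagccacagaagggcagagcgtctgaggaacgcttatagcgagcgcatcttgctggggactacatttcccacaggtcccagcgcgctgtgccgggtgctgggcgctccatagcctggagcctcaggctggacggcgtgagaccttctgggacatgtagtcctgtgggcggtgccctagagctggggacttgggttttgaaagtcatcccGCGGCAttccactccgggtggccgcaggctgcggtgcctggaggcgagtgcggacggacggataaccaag
Mest, chr6:30737800-30738099, plus strand: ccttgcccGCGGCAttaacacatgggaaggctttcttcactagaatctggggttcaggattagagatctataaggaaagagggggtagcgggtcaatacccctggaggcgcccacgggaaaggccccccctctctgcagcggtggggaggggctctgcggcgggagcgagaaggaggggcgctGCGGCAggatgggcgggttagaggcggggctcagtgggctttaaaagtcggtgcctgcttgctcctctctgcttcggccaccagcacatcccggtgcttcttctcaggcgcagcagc
Dlk1, chr12:109452573-109452872, plus strand: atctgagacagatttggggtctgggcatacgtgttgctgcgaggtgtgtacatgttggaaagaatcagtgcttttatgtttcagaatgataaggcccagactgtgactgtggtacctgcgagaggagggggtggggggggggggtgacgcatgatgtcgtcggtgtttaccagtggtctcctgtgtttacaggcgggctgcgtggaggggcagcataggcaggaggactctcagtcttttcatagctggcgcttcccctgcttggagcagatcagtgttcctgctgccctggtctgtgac
The hexamer stands at positions 9 and 184 of the printed Mest window and at position 231 of the Zim1 window, counted from the first base printed. It is not among the letters of the Peg3 and Dlk1 windows. Mest has several windows, and the printed one was picked for the most matches. The Mest window at chr6:30733256-30733555 held 0 matches. That at chr6:30737803-30738102 overlaps the printed one, held 2, and is counted apart in the shares per window. At least 1 match was held by 11 of the 36 members (30.6%), against 13.1% of all 27025 genes with a window. Per window the shares were 20.7% of 58 member windows and 11.6% of all 32851. Member windows had a median of 13 CpG dinucleotides (range 0 to 48), against a median of 7 over all windows. The Peg3 window shares 263 bases with that of Usp29, which starts 147 bases away on the other strand.

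Several members are also hosts of small RNAs, and those of the hosts discussed most are shown here with the seed (bases 2 to 8) in capitals.
mmu-miR-675-5p, in H19: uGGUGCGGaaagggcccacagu
mmu-miR-675-3p, in H19: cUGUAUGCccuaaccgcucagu
mmu-miR-335-5p, in Mest: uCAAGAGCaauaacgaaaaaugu
mmu-miR-770-5p, in Meg3: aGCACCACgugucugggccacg
mmu-miR-453, in Mirg: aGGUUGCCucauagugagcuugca
mmu-miR-496a-5p, in Mirg: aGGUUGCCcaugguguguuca
The last 2 share their seed. Mirg holds 14 annotated miRNA genes on its strand, Rian 3, Meg3 2, and H19, Igf2, Mest and Usp29 1 each. Mature miRNAs were not measured in these libraries, so the values below are for the host transcripts only.

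Counts over genes ranged from 13791730 to 16585518 in adult cells and from 7289792 to 21490686 in pup cells. Pup replicate 1 stood apart. In that library 76.7% of all reads tallied lay outside genes, against 9.70% to 10.6% in the other 3 libraries, and 96.5% of 1134 olfactory receptor genes had a count there, against 1.59% to 7.67%. At the rate seen over those receptor genes, 14.0 counts per kb of exon would be expected as background in pup replicate 1, or 24.1% of its gene counts. It is given below for the 14 members where it came to at least 50% of their count in that library, and for some others. Fgf10 encodes a secreted growth factor, and the Cre recombinase was placed under its control. Fgf10 RNA stood at 195 and 40.3 CPM (counts scaled to library size with TMM factors, throughout) in adult cells and 27.3 and 24.1 CPM in pup cells. Markers of cell types also separated the libraries. The 7 ionocyte markers summed to 5237 and 2662 CPM in adult cells, against 64.4 and 52.3 CPM in pup cells. The 8 epithelial markers summed to 9634 and 12538 CPM in adult cells against 1677 and 3951 CPM in pup cells, and 10 mesenchyme markers to 420.2 and 20275 CPM in adult cells against 22899 and 53666 CPM in pup cells.

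Most imprinted genes were lower in adult than in pup cells. The 42 genes together took 665 and 765 CPM in adult cells, with 3523 and 5633 CPM in pup cells. Without H19, the first member per kb of exon in both pup libraries, the sums were 660.1 and 765 CPM in adult cells against 2996 and 3567 CPM in pup cells. Both adult libraries lay below both pup libraries for 29 of the 41 members tested, where 27.1% of all 16320 genes tested did, and above both for 2, where 21.8% did. With expected background subtracted from pup replicate 1, both adults lay below both pups for 26 of the 42 members, against 30 without subtraction. The matching share of all genes was not computed. Of the 41, 36 had a negative log2 fold change of adult over pup. The median was -2.51, on a log2 scale where the median of all genes was -0.24. Setting the 6 tested members with no count in adult cells at the bound given below left that median at -2.51. Each bound was itself below the median, so the median could not move. These are bulk libraries, so fewer cells of a type and less RNA per cell cannot be told apart.

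The call of each gene depended on the test. By edgeR's quasi-likelihood test with Benjamini-Hochberg adjustment over all genes, 0 members passed in either direction, as did 0% of all genes. At an unadjusted p under 0.05 edgeR gave 19 members lower and 0 higher, where 8.49% and 5.99% of all genes passed. DESeq2 called the same 19 lower at an adjusted p under 0.05 (5.2% of all genes were lower by it and 3.66% higher), and no member higher. The 19 were H19, Igf2, Dlk1, Meg3, Rian, Cdkn1c, Ascl2, Kcnq1ot1, Peg3, Usp29, Zim1, Mest, Ndn, Magel2, Peg12, Grb10, Ddc, Nnat and Rasgrf1. By limma-voom 0 were called. With all 4 libraries and this filter, no gene described below passed edgeR's adjusted threshold.

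The members were chosen with such differences already known, and the filter on low counts adds to this. Of the 41 members tested, 8 passed the filter's minimum of 0.658 CPM in both pups and in neither adult, 11 in both pups and 1 adult, and 22 in both adults. The remaining member, Nespas, had 17 counts in pup replicate 1 against an expected background of 44.0, and 2 in pup replicate 2, and was not tested. Of the 22 past the minimum in both adults, DESeq2 called 8 lower, and 11 lay lower in both adults than in both pups. The shares over all genes past the minimum in both adults were not computed, so these counts have no matching background.

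**Figure D1:**
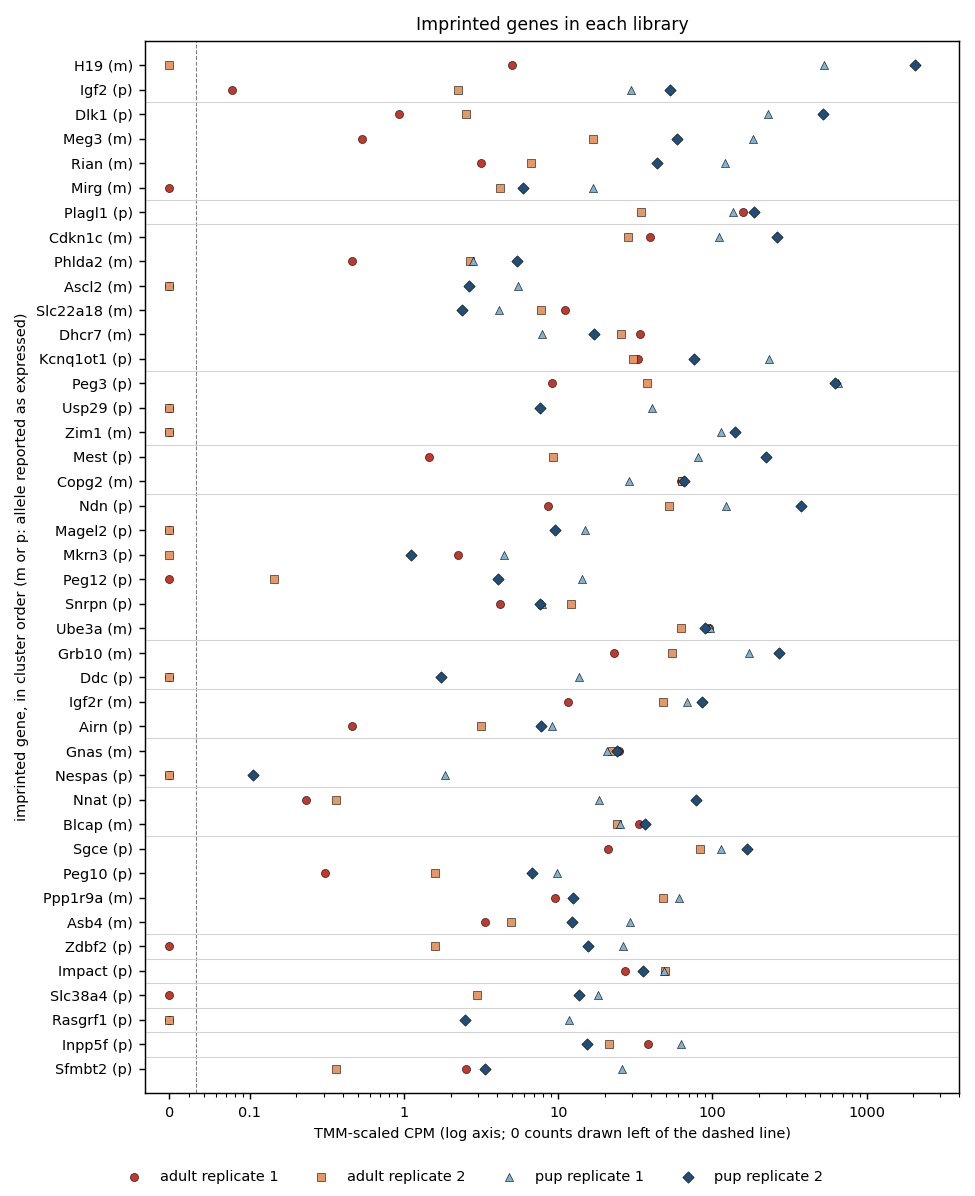
TMM-scaled CPM (log axis) of the 42 imprinted genes in the 2 adult and 2 pup libraries, grouped by cluster, with the allele reported as expressed (m or p) after each name; points left of the dashed line are at 0 counts. For 29 of the 41 tested genes, and for the untested Nespas, both adult points lie left of both pup points.

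Leaving out libraries moved the number of calls but gave no member called higher. DESeq2 called 11 members lower without pup replicate 1 (2.07% of all genes), 10 without pup replicate 2 (2.25%), 13 without adult replicate 1 (3.02%) and 22 without adult replicate 2 (9.77%). With the background of pup replicate 1 subtracted it called 17 (5.18% of all genes). Dlk1, Rian, Peg3, Zim1, Mest, Magel2 and Nnat, 7 members in all, were called lower in all 6 DESeq2 fits. By edgeR 8 members were called lower without adult replicate 1 (0.987% of all genes) and 11 without adult replicate 2 (4.49%), and 0 without either pup library. Without adult replicate 2, DESeq2 lost Ascl2 and Kcnq1ot1 and added Mirg, Igf2r, Sgce, Zdbf2 and Slc38a4, with adjusted p of 0.00606, 0.0187, 0.00669, 0.000565 and 0.00161. Genes called higher were 4.36%, 4.61%, 1.66% and 2.28% of all genes in those 4 DESeq2 fits and 4.71% with background subtracted. In the edgeR fits without an adult library they were 1.4% and 1.51%. Both adults lay below pup replicate 2 alone for 32 of 41 members tested, where 40.1% of all genes did.

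In the H19-Igf2 cluster on chromosome 7 both members were lower in adult. H19 (ENSMUSG00000000031, chr7:142575529-142578143 in GRCm38, minus strand), a maternally expressed noncoding RNA, had 65 and 0 counts in adult cells against 4869 and 39311 in pup cells. That is 4.98 and 0 CPM in adult cells against 527 and 2065 CPM in pup cells. Its log2 fold change was -9.02 ± 2.34 (SE, 2 libraries per age; DESeq2 adjusted p = 0.0287, edgeR adjusted p = 0.248). The DESeq2 adjusted p was 0.313 without pup replicate 1 and 0.464 without pup replicate 2. The adult counts all came from replicate 1, so the adults differed between themselves on this gene.

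Igf2, the paternally expressed growth factor gene next to H19, was at 0.0766 and 2.23 CPM in adult cells, with 29.8 and 53.1 CPM in pup cells (log2 fold change -5.15 ± 1.42, SE; DESeq2 adjusted p = 0.00253, but 0.176 without pup replicate 2). Background was expected to give 80.0 of its 275 counts in pup replicate 1. The order of the adults was thus opposite to that of H19, with Igf2 RNA nearly all in replicate 2. Other annotated genes share 64.5% of the Igf2 exon length, and reads there may have been left uncounted, so its level per length may be understated. With that limit, H19 had 214 and 840 CPM per kb of exon in pup cells, against 5.20 and 9.28 CPM per kb for Igf2.

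Of the 4 members of the Dlk1-Meg3 cluster on chromosome 12, DESeq2 called 3 lower in adult, namely Dlk1, read from the paternal copy, and the maternally expressed noncoding RNAs Meg3 and Rian. Dlk1 (ENSMUSG00000040856, chr12:109452823-109463336, plus strand), a Notch-like membrane protein that holds back adipocyte differentiation, had 12 and 35 counts in adult cells, with 2127 and 9892 in pup cells. These counts equal 0.920 and 2.52 CPM in adult cells against 230.2 and 519.7 CPM in pup cells. The log2 fold change was -7.76 ± 0.97 (SE; DESeq2 adjusted p = 1.86e-25, edgeR adjusted p = 0.162), and the lowest pup library stood far above the highest adult one. Where edgeR was run on the 15186 genes with at least 10 counts in both libraries of an age, Dlk1 and Zim1 were the 2 genes called lower in adult (0.0132%), while 0.0856% of genes and no member were called higher.

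Meg3 stood at 0.536 and 16.7 CPM in adult cells, with 183 and 59.0 CPM in pup cells (log2 fold change -3.81 ± 1.45, SE; DESeq2 adjusted p = 0.0322). Rian, which carries C/D small nucleolar RNAs, stood at 3.14 and 6.62 CPM in adult cells against 121 and 43.9 CPM in pup cells (-4.08 ± 0.77; DESeq2 adjusted p = 4.14e-05). Mirg had 0 and 4.18 CPM in adult cells against 16.8 and 5.88 CPM in pup cells and was not called (-2.43 ± 2.24). The 3 noncoding RNAs were higher in pup replicate 1 than in pup replicate 2, whereas Dlk1 was higher in pup replicate 2. Background was expected to give 253 of 1694 Meg3 counts, 255 of 1121 Rian counts and 102 of 155 Mirg counts in pup replicate 1. Without pup replicate 1 DESeq2 gave adjusted p of 0.442 for Meg3 and 0.0386 for Rian, and without pup replicate 2 it gave 0.0531 for Meg3. Per kb of exon, Dlk1 exceeded Meg3 in pup cells (40.7 and 91.9 against 10.1 and 3.26 CPM per kb) and in adult replicate 1 (0.163 against 0.0297), while in adult replicate 2 it was below Meg3 (0.445 against 0.923).

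All 3 members of the Peg3 cluster on chromosome 7 were called lower by DESeq2, and Zim1 and Usp29 had no count in either adult. Zim1 (ENSMUSG00000002266, chr7:6671269-6696450, minus strand), a maternally expressed zinc finger gene, had 0 counts in both adults and 1054 and 2667 counts in pup cells, or 114 and 140.1 CPM. Background was expected to give 113 of its 1054 counts in pup replicate 1. Against a floor of 3 counts over the adults, and taking every count of pup replicate 1 as background, Zim1 was at least 629-fold lower in adult (DESeq2 adjusted p = 1.54e-14; edgeR adjusted p = 0.141). The pup libraries were close to each other on this gene.

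Peg3 (ENSMUSG00000002265, chr7:6703892-6730431, minus strand), a paternally expressed zinc finger gene, stood at 9.04 and 37.8 CPM in adult cells, with 655 and 622 CPM in pup cells (log2 fold change -4.77 ± 0.96, SE; DESeq2 adjusted p = 4.25e-09). Unlike Zim1 it kept a measurable level in both adults. Usp29, a gene of the ubiquitin-specific protease family that starts in the promoter window printed above, had 0 counts in both adults and 372 and 144 in pup cells, with 253 of the 372 expected from background. It was at least 34.0-fold lower in adult on the same floor (DESeq2 adjusted p = 7.08e-06, but 0.0954 without pup replicate 1). Per kb of exon Usp29 lay far below Peg3 in pup cells, at 2.23 and 0.418 against 49.2 and 46.7 CPM per kb.

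Mest (ENSMUSG00000051855, chr6:30723547-30748465, plus strand), a paternally expressed gene for a protein with an alpha/beta hydrolase fold, had 19 and 129 counts in adult cells, with 741 and 4248 in pup cells. This equals 1.46 and 9.29 CPM in adult cells against 80.2 and 223 CPM in pup cells (log2 fold change -4.82 ± 1.07, SE; DESeq2 adjusted p = 3.03e-05). Copg2, which encodes a subunit of the COPI vesicle coat and lies tail to tail with Mest, stood at 62.5 and 63.7 CPM in adult cells, with 28.8 and 65.8 CPM in pup cells, so that the ages overlapped (0.42 ± 0.55; DESeq2 adjusted p = 0.852). Copg2 exceeded Mest per kb of exon in adult cells (12.2 and 12.4 against 0.369 and 2.35 CPM per kb) and was below it in pup cells (5.62 and 12.8 against 20.3 and 56.6). Without strand the reads of their shared 3′ parts cannot be told apart, which covers 23.1% of the Mest and 17.8% of the Copg2 exon length.

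**Figure D2:**
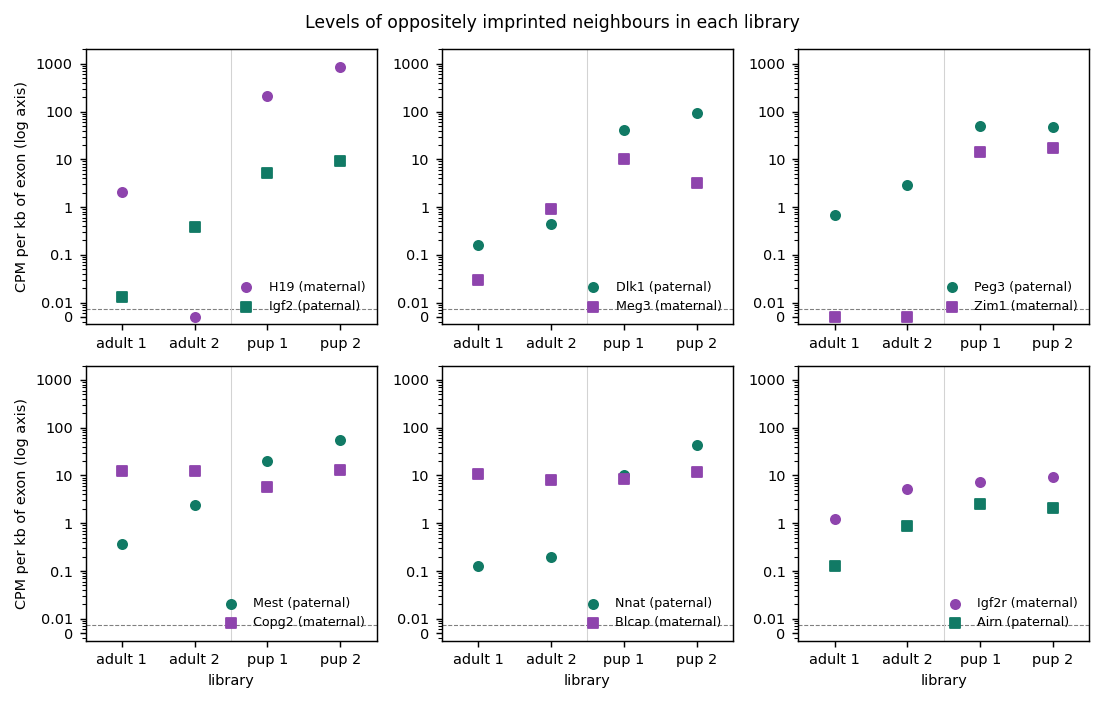
CPM per kb of exon (log axis, 0 drawn below the dashed line) in each library for 6 pairs of neighbouring genes reported as expressed from opposite parental copies. Copg2 and Blcap stand at 5.62 to 12.8 CPM per kb in the 4 libraries, while their partners Mest and Nnat are at 0.126 to 2.35 in adult cells and 10.1 to 56.6 in pup cells; Zim1 is at 0 in both adults.

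A similar contrast held in the Nnat-Blcap pair on chromosome 2. Nnat, a small paternally expressed proteolipid gene inside an intron of Blcap, had 3 and 5 counts in adult cells, with 170 and 1491 in pup cells, or 0.230 and 0.360 CPM in adult cells against 18.4 and 78.3 CPM in pup cells (log2 fold change -7.31 ± 1.10, SE; DESeq2 adjusted p = 4.03e-09). Background was expected to give 25.6 of the 170. Blcap itself stood at 33.4 and 24.1 CPM in adult cells, with 25.3 and 36.4 CPM in pup cells, and these ranges overlapped (-0.10 ± 0.54).

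The Kcnq1ot1 cluster, also on chromosome 7, was mixed. Cdkn1c (ENSMUSG00000037664, chr7:143458339-143461050, minus strand), the cyclin-dependent kinase inhibitor p57, stood at 39.3 and 28.4 CPM in adult cells, with 110.4 and 263 CPM in pup cells (log2 fold change -2.46 ± 0.62, SE; DESeq2 adjusted p = 0.00201, 0.147 without pup replicate 2). It was the second member per kb of exon in every library, at 19.3 and 13.9 CPM per kb in adult cells and 54.1 and 129 in pup cells. A gene on the other strand shares 30.7% of the Cdkn1c exon length. Reads there may have been left uncounted, so its level per length may be understated. Kcnq1ot1, the paternally expressed antisense RNA that silences the cluster, had 33.1 and 30.7 CPM in adult cells against 233 and 76.5 CPM in pup cells (-2.28 ± 0.66; DESeq2 adjusted p = 0.0181). Its exon is 93092 bases long, and background was expected to give 1302 of its 2151 counts in pup replicate 1. Without that library the DESeq2 adjusted p was 0.308, and it was 0.0966 and 0.0714 without adult replicates 1 and 2.

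The other maternally expressed genes of that cluster went both ways. Ascl2, a transcription factor of the placenta and of intestinal stem cells, had 0 counts in adult cells, with 51 and 50 in pup cells, at least 11.8-fold lower in adult (DESeq2 adjusted p = 0.0473, but 0.177 and 0.107 without adult replicates 1 and 2, and 0.0737 after background subtraction), with 22.7 of the 51 expected from background. With pup replicate 1 or pup replicate 2 left out, DESeq2 gave Ascl2 no adjusted p. Phlda2, which limits placental growth, stood at 0.460 and 2.66 CPM in adult cells against 2.81 and 5.41 CPM in pup cells (log2 fold change -1.39 ± 1.81) and was not called, with 15.7 of its 26 counts in pup replicate 1 expected from background. Slc22a18, a membrane transporter gene, and Dhcr7, the last enzyme of cholesterol synthesis, were the 2 members higher in both adults than in both pups. Slc22a18 had 144 and 108 counts in adult cells, with 38 and 45 in pup cells (1.54 ± 1.37, SE), with 23.8 of the 38 expected from background. Dhcr7 stood at 34.1 and 25.6 CPM in adult cells against 7.79 and 17.1 CPM in pup cells (1.26 ± 0.71). Neither Slc22a18 nor Dhcr7 was called, with DESeq2 adjusted p of 0.571 and 0.449, and the 72 Dhcr7 counts of pup replicate 1 were below the 81.4 expected from background.

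The cluster named for Snrpn fell into 2 parts. The 4 intron-poor genes Ndn, Magel2, Mkrn3 and Peg12 lie close together on chromosome 7, and 3 of them were called lower by DESeq2. Ndn, a MAGE family growth suppressor, stood at 8.58 and 52.3 CPM in adult cells, with 122 and 377 CPM in pup cells (log2 fold change -3.03 ± 1.03, SE; DESeq2 adjusted p = 0.0158, 0.0888 without adult replicate 1 and 0.334 without pup replicate 2). In adult replicate 2 it was the first member per kb of exon, at 14.2 CPM per kb. Magel2, of the same family, had 0 counts in adult cells, with 137 and 180 in pup cells, at least 42.5-fold lower in adult (DESeq2 adjusted p = 0.000141), with 64.8 of the 137 expected from background.

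Peg12 had 0 and 2 counts in adult cells against 132 and 77 in pup cells, a CPM ratio of pup over adult of 99.6 (exact 95% counting interval 27.2 to 828, for counting error alone; DESeq2 adjusted p = 0.00768, but 0.438 and 0.0599 when pup replicate 1 or 2 was left out and 0.0832 without adult replicate 1). Mkrn3, a makorin E3 ligase involved in the timing of puberty, stood at 2.22 and 0 CPM in adult cells against 4.44 and 1.10 CPM in pup cells, and background was expected to give 35.6 of its 41 counts in pup replicate 1. Farther along the chromosome, Snrpn, a spliceosomal protein gene, had 4.21 and 12.2 CPM in adult cells, with 7.79 and 7.62 CPM in pup cells (log2 fold change 0.09 ± 1.25). Ube3a, a ubiquitin ligase whose imprinting is known from neurons, had 95.6 and 62.3 CPM in adult cells against 96.4 and 89.3 CPM in pup cells (-0.23 ± 0.47). Neither Snrpn nor Ube3a was called, and other genes share 34.1% and 27.3% of their exon lengths.

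Growth factor signalling is the role of the next loci. Grb10 on chromosome 11, an adaptor that dampens insulin and IGF signalling, stood at 23.1 and 54.6 CPM in adult cells, with 172 and 269 CPM in pup cells (log2 fold change -2.51 ± 0.65, SE; DESeq2 adjusted p = 0.00129, but 0.0825 without adult replicate 1 and 0.0656 without pup replicate 2). Its neighbour Ddc, which makes dopamine and serotonin, had 0 counts in adult cells, with 125 and 33 in pup cells, at least 7.78-fold lower in adult (DESeq2 adjusted p = 0.00753), with 62.4 of the 125 expected from background. Without pup replicate 1 DESeq2 gave Ddc no adjusted p. Igf2r on chromosome 17, the receptor that clears IGF2, stood at 11.5 and 47.7 CPM in adult cells against 68.8 and 85.1 CPM in pup cells (-1.38 ± 0.73), below the pups in both adults but not called. The antisense RNA Airn stood at 0.460 and 3.17 CPM in adult cells against 9.09 and 7.67 CPM in pup cells (-2.20 ± 1.66) and was not called either, and background was expected to give 50.3 of its 84 counts in pup replicate 1.

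Gnas on chromosome 2, the gene of the G protein alpha subunit that activates adenylate cyclase, was nearly level at 24.8 and 22.3 CPM in adult cells, with 20.6 and 24.1 CPM in pup cells (log2 fold change 0.07 ± 0.58, SE). Background was expected to give 156 of its 190 counts in pup replicate 1, and other genes share 22.0% of its exon length. In the Peg10 cluster on chromosome 6, Sgce, a sarcoglycan of the cell membrane, stood at 21.0 and 83.4 CPM in adult cells, with 114 and 167 CPM in pup cells (-1.43 ± 0.73). The retrotransposon-derived gene Peg10 stood at 0.307 and 1.58 CPM in adult cells against 9.74 and 6.78 CPM in pup cells (-3.11 ± 1.73), and its 90 counts in pup replicate 1 were below the 93.2 expected. Asb4 had 3.37 and 4.97 CPM in adult cells against 29.3 and 12.3 CPM in pup cells (-2.32 ± 1.01), and Ppp1r9a, the neurabin gene, 9.50 and 47.7 CPM in adult cells against 60.5 and 12.4 CPM in pup cells (-0.35 ± 1.01). DESeq2 called none of the 4 with all libraries.

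Single imprinted loci differed among themselves. Rasgrf1, an exchange factor for Ras, had 0 counts in adult cells, with 108 and 47 in pup cells, at least 11.1-fold lower in adult (DESeq2 adjusted p = 0.00752, but 0.0522 without adult replicate 1 and 0.0706 without pup replicate 2), although the expected background in pup replicate 1 was 155 counts. Without pup replicate 1, or with its background subtracted, DESeq2 gave Rasgrf1 no adjusted p, and it was called in 2 of the 6 fits. Zdbf2 stood at 0 and 1.58 CPM in adult cells, with 26.2 and 15.5 CPM in pup cells (log2 fold change -4.70 ± 1.95, SE; DESeq2 adjusted p = 0.0542), with 177 of 242 counts in pup replicate 1 expected from background. Slc38a4, an amino acid transporter, had 0 and 2.95 CPM in adult cells against 18.1 and 13.6 CPM in pup cells (-3.41 ± 2.08). Sfmbt2, a Polycomb-related gene, had 2.53 and 0.360 CPM in adult cells against 25.9 and 3.36 CPM in pup cells (-3.33 ± 1.73), so that the value of pup replicate 1 carried most of that difference. Without pup replicate 1, the edgeR log2 fold change of Sfmbt2 was -1.22, and background was expected to give 128 of its 239 counts in that library.

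Other single loci overlapped between the ages. Plagl1 on chromosome 10, a zinc finger transcription factor that binds other imprinted genes, stood at 158 and 34.4 CPM in adult cells, with 136 and 186 CPM in pup cells (log2 fold change -0.74 ± 0.77, SE). It was the first member per kb of exon in adult replicate 1, at 20.2 CPM per kb, and the adults differed more from each other than the pups did. Impact, a regulator of translation, stood at 27.1 and 49.5 CPM in adult cells against 48.2 and 35.5 CPM in pup cells (-0.13 ± 0.54). Inpp5f, an inositol phosphatase gene, had 38.4 and 21.5 CPM in adult cells against 62.8 and 15.3 CPM in pup cells (-0.38 ± 0.77), and its sign turned without pup replicate 1 (0.96). By DESeq2 the adjusted p-values of these 3 genes were 0.696 to 0.927.

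**Figure D3:**
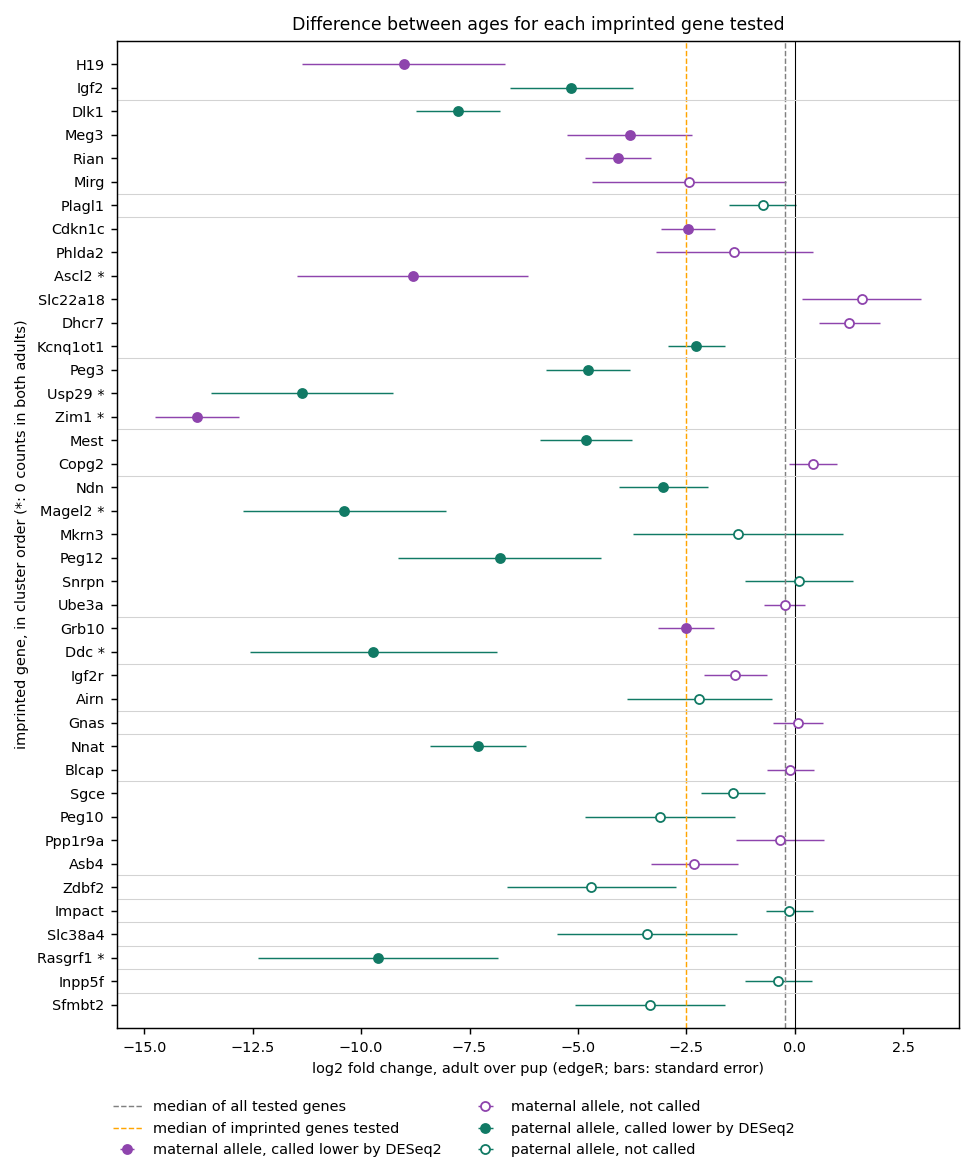
Log2 fold change of adult over pup from edgeR with its standard error for the 41 imprinted genes tested, in cluster order, coloured by the allele reported as expressed and filled where DESeq2 called the gene lower. The 19 filled points lie between -13.78 and -2.28; values of genes with 0 counts in both adults (*) depend on the prior count and are no bound.

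Lower values in adult were seen for genes of both parental copies. Over all genes tested, DESeq2 called 5.2% lower and 3.66% higher, and 27.1% lay lower in both adults. Among the 23 tested members reported as paternally expressed, DESeq2 called 12 lower and 0 higher, 18 lay lower in both adults, and the median log2 fold change was -3.41. Among the 18 maternally expressed ones it called 7 lower and 0 higher, 11 lay lower in both adults, and the median was -1.85. Leaving out the 10 members marked as limited to some tissues or isoforms, 11 of 21 paternal and 6 of 10 maternal members were called lower. Their medians were -3.41 and -3.14. Of the 10 left out, 3 (30%) lay lower in both adults, near the share of all genes. They had a median of -0.29, with 2 called lower (Grb10 and Ddc). Their 32 counterparts had a median of -3.41 over 31 tested, with 17 called lower. Of the 6 noncoding members tested 4 were called lower and of the 35 coding ones 15. The difference between these classes was not tested.

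Beyond the list, 38 other imprinted genes were read as a comparison, of which 31 were tested. DESeq2 called 1 lower and 1 higher, 8 lay lower and 8 higher in both adults than in both pups, and the median log2 fold change was -0.04. Over all genes tested, 5.2% were called lower and 27.1% lay lower in both adults. Among these 31 the shares were 3.23% and 25.8%. The gene called lower was Klf14, a maternally expressed transcription factor gene near Mest, at 0 CPM in both adults and 14.1 and 17.8 CPM in pup cells. The gene called higher was Cobl, an actin nucleator near Grb10, at 81.0 and 97.1 CPM in adult cells against 16.2 and 15.5 CPM in pup cells (2.49 ± 0.47, SE; edgeR adjusted p = 0.196). The 4 largest absolute log2 fold changes were those of Klf14, Begain (-3.47 ± 2.15), Ntm (-2.62 ± 2.23) and Rtl1 (-2.51 ± 2.35). Begain, Ntm and Rtl1 were not called. Rtl1, which lies between Meg3 and Rian and is read from the same parental copy as Dlk1, stood at 0.153 and 1.73 CPM in adult cells against 10.6 and 0.263 CPM in pup cells, with 88.9 of its 98 counts in pup replicate 1 expected from background. Both lists were chosen with results known, so the contrast between them is a description.

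Genes that set or keep imprints were also read, and 12 of 13 were tested. By DESeq2 5.2% of all genes tested were lower, and 8.33% of these 12. DESeq2 called 1 lower, Uhrf1, which brings the maintenance methyltransferase to replicated DNA, at 0.230 and 2.88 CPM in adult cells, with 22.5 and 30.1 CPM in pup cells (log2 fold change -4.07 ± 1.36, SE; adjusted p = 0.0197 by DESeq2, 0.284 by edgeR). Dnmt1, the maintenance methyltransferase itself, stood at 40.4 and 53.7 CPM in adult cells against 32.9 and 45.0 CPM in pup cells (0.27 ± 0.48). The other genes of largest difference were Dnmt3b (-4.36 ± 2.10), Zfp57 (-1.42 ± 2.48) and Dnmt3a (-1.22 ± 0.54), none of them called. Zfp57 was scarce, at 0 and 1.01 CPM in adult cells, with 2.60 and 0.158 CPM in pup cells.

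Protein-coding genes within 500 kb of a member that stand on neither imprinted list numbered 195, of which 110 were tested. DESeq2 called 6 lower and 5 higher, 27 lay lower and 26 higher in both adults, and the median log2 fold change was -0.21. Over all genes tested, 5.2% were called lower and 3.66% higher, and 27.1% lay lower and 21.8% higher in both adults. Among the neighbours 5.45% were called lower and 24.5% lay lower in both adults, near those shares. The 4 with the largest differences were Cpa4 near Mest, Plg near Igf2r, and Zpbp and Fignl1 near Grb10. Cpa4, a carboxypeptidase gene, had 0 CPM in both adults and 7.25 and 1.84 CPM in pup cells (DESeq2 adjusted p = 0.0383). Fignl1, a DNA repair gene, stood at 0.230 and 0.144 CPM in adult cells against 13.1 and 6.99 CPM in pup cells (-5.68 ± 1.79, SE; DESeq2 adjusted p = 0.00208). Plg and Zpbp were not called by DESeq2.

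**Figure D4:**
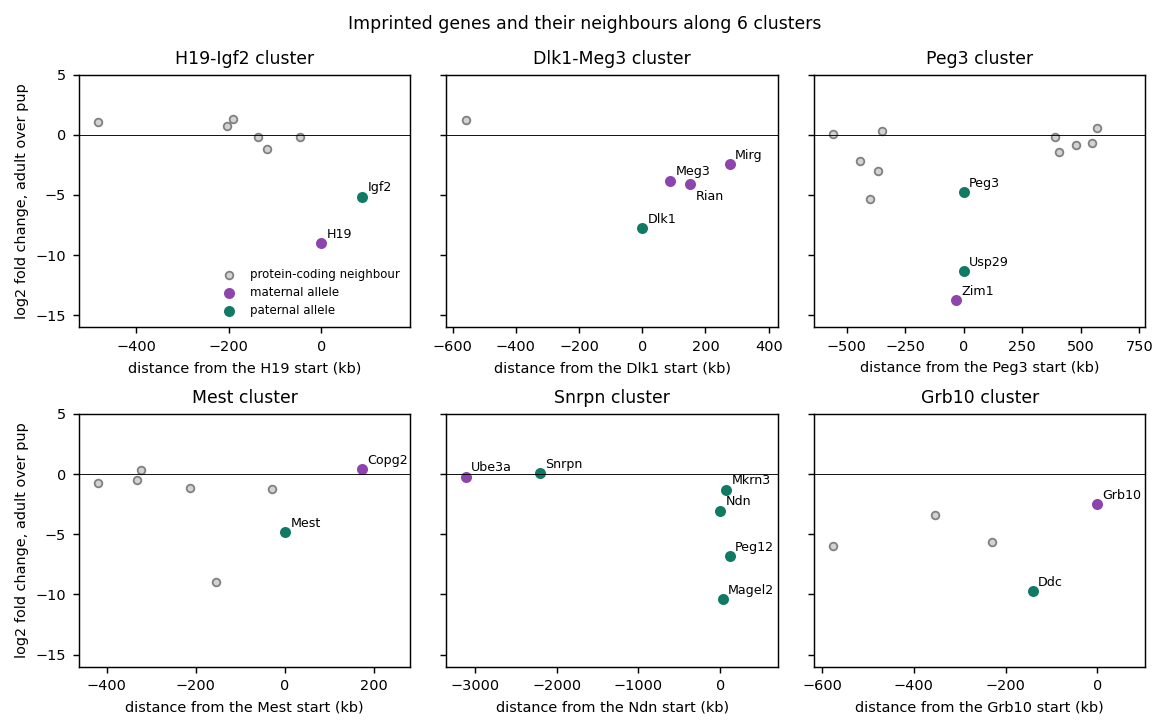
Log2 fold change of adult over pup for tested imprinted genes (coloured by the allele reported as expressed) and tested protein-coding neighbours (grey) against the distance in kb from the start of a named member, for 6 clusters. In the Peg3 panel the 3 members lie at -4.77, -11.37 and -13.78; in the Snrpn panel Ube3a and Snrpn lie near 0.

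Markers of mesenchyme, of glia and nerve and of cell division also had lower values in adult cells, and those of myoepithelium had negative log2 fold changes. The 10 mesenchyme markers all had negative log2 fold changes, with a median of -1.89, and 7 lay lower in both adults, while DESeq2 called 1 (Prrx1). Their sums were 420.2 and 20275 CPM in adult cells, with 22899 and 53666 CPM in pup cells, and Twist2 was at 0 in adult replicate 1. The 8 division markers summed to 9.27 and 2.38 CPM in adult cells, with 215 and 312 CPM in pup cells. All 8 were called lower by DESeq2, and Cenpf, Kif11, Ccnb1 and Bub1 were at 0 in both adults. The 4 glia and nerve markers tested had a median of -4.78, and all 4 lay lower in both adults. The 5 markers of that list summed to 26.7 and 56.2 CPM in adult cells, with 93.1 and 184 CPM in pup cells. The 5 endothelial markers separated libraries of the same age, at a sum of 0.0766 and 831 CPM in adult cells, with 102 and 2.68 CPM in pup cells, and DESeq2 called none. The 4 myoepithelium markers tested had a median of -1.37, and 1 (Krt14) lay lower in both adults and was called lower by DESeq2. The 5 acinar markers had a median of 2.88, with 1 called lower, but 2 lay lower and 0 higher in both adults. Their sums were 108 and 651 CPM in adult cells, with 559 and 1617 CPM in pup cells. Lpo and Aqp5 were at 0 in adult replicate 1 and at 225 and 138 CPM in adult replicate 2. The 4 leukocyte markers tested had a median of -0.55, with 0 called. Over all genes tested, 27.1% lay lower in both adults and DESeq2 called 5.2% lower. The part of these cell types in the result for imprinted genes was not tested.

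Adult replicate 2 and pup replicate 1 were also set side by side, a pair picked after the data were seen for its similar mesenchyme sums of 20275 and 22899 CPM. Most of both sums came from the collagen genes Col1a1, Col1a2 and Col3a1, so the pair was matched on these rather than on mesenchyme content. Pdgfra stood at 210 CPM in adult replicate 2 and 387 CPM in pup replicate 1, and Pdgfrb at 190 and 140 CPM. After subtraction of background from pup replicate 1, and with 0.5 CPM added to each value, the median log2 ratio of adult replicate 2 over pup replicate 1 was -1.56 for the 41 imprinted genes, and 30 of them (73.2%) were lower in adult replicate 2. Over all genes tested the median was 0.61, and 33.4% were lower. For the mesenchyme markers, on which the pair was picked, the median was -0.03, and 7 of 10 were lower. It was -4.27 for the division markers (8 of 8 lower), -2.78 for the glia and nerve markers (4 of 4) and 3.72 for the endothelial ones (0 of 5). For myoepithelium markers the median was -0.85 (4 of 4 lower), for acinar ones 6.38 (1 of 5) and for leukocyte ones 0.40 (1 of 4). Epithelial and ionocyte markers had medians of 2.78 (0 of 8) and 6.78 (0 of 7). The ratio compares 1 library with 1 library and has no replicate check. Between the adults, 23 of 41 members (56.1%) were higher in replicate 2 than in replicate 1, where 52.4% of all genes tested were. Ascl2, Usp29, Zim1, Magel2, Ddc and Rasgrf1, with no count in either adult, entered that share as not higher. The same rule held for all genes tested. All 10 mesenchyme markers were higher in adult replicate 2. The part of mesenchyme in the member values was not tested.

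**Figure D5:**
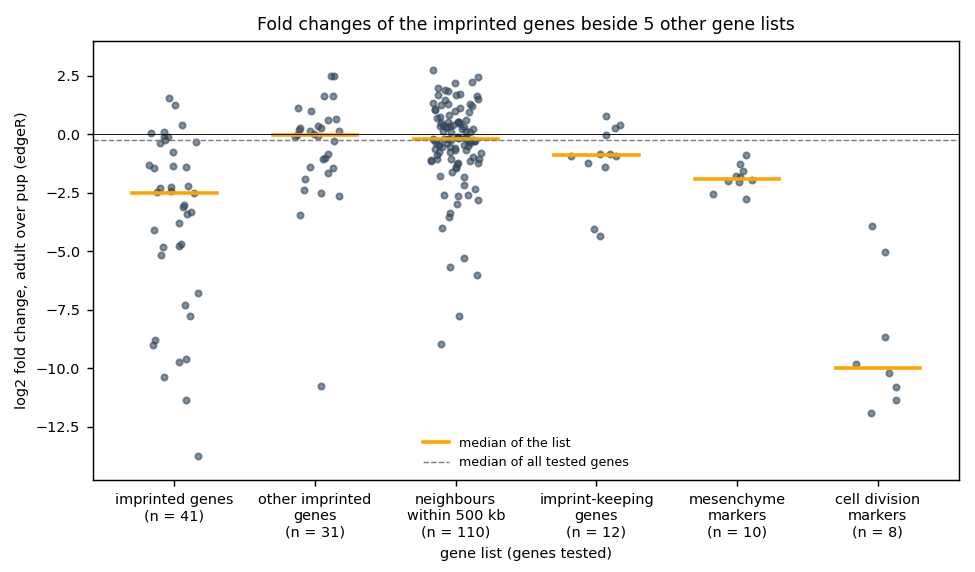
Log2 fold change of adult over pup (edgeR) for each tested gene of 6 lists, with the median of each list and of all 16320 genes. The medians are -2.51 for the imprinted genes, -0.04 for other imprinted genes, -0.21 for neighbours, -0.88 for imprint-keeping genes, -1.89 for mesenchyme markers and -10.01 for division markers.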

How the data were processed

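Per the labels' protocols, libraries were made from 1 ng of RNA of sorted cells with SMART-Seq HT, whose PCR-amplified cDNA keeps no strand information. The deposited values used are raw read counts per Ensembl gene. Named in the submitters' processing notes are cutadapt 1.18, STAR 2.5.2a, HTSeq 0.11.0, R 3.5.1, DESeq2 1.20.0 and build GRCm38. Their options, annotation and strandedness were not given in the sources used here. HTSeq's tallies of reads outside genes, ambiguous or not unique (31.5% to 84.4% of reads) were left out. The 8 value columns of 2 series tables match no single sample and were not used.

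Symbols, positions and exon lengths came from GENCODE vM21 (GRCm38), which matched 53274 of 53465 IDs. Counts were analysed in R 4.3.3 with edgeR 4.0.16 (quasi-likelihood F test, TMM factors, filterByExpr with minimum count 10 and minimum total 15, age as the only term, adjusted p under 0.05). The standard error is the log2 fold change divided by the square root of F. DESeq2 1.42.0 and limma-voom (limma 3.58.1) on the same 16320 genes were alternatives. Other scalings and filters, each library left out in turn, a replicate block and background subtraction were also tried, and the DESeq2 fits without a library or with background subtracted were added after seeing the data. The edgeR fit was tested on simulated counts. Expected background in pup replicate 1 is its count per kb over olfactory receptor genes multiplied by exon length and, for X and Y, by 0.5. Floors and intervals cover counting error only. The labels' replicate numbers do not state a pairing. The members and lists were chosen with earlier results of these data known. Named genes are all 42 members and the 4 of largest difference in each comparison list, and others were named after their values were seen.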

Additional observations from a re-analysis of the deposited data

How the results depend on the processing

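By edgeR the analysis as reported called 0 genes and 0 imprinted genes in either direction. The number of imprinted genes called lower was 2 with 10 counts required in every library of an age, 11 with no filter beyond 1 count, 19 by DESeq2 and 17 by DESeq2 with the background of pup replicate 1 subtracted. It was 0 with other scaling factors, limma-voom, edgeR with that background subtracted, or the replicate block. In none of these fits was a member called higher. Over all genes, the numbers lower and higher in adult were 2 and 13 with 10 counts required, 231 and 284 with no filter, 848 and 597 by DESeq2, and 845 and 768 by DESeq2 with background subtracted. Without 1 library they ranged from 0 to 733 lower and 0 to 247 higher by edgeR. By DESeq2 they were 493 and 271 without adult replicate 1, 1595 and 372 when adult replicate 2 was left out, 338 and 711 without pup replicate 1, and 368 and 753 without pup replicate 2. Imprinted genes called lower then ranged from 0 to 11 by edgeR and from 10 to 22 by DESeq2. In the leave-one-out fits the lone library is assumed to vary like the other age.

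The median log2 fold change of the members was -3.27 with the replicate block, -3.04 with library totals, and -4.16 to -2.43 without 1 library. The deviations of libraries with the same number correlated at -0.0982 across genes, and the block called 0 genes. Library totals, upper-quartile and DESeq2 factors moved the median of all genes by -0.38, -0.18 and -0.07. The sign turned for the members named next, none of which was called. Snrpn was at -0.10 with the replicate block, -0.072 by limma-voom, -0.33 with library totals and -0.12 with upper-quartile factors. Gnas was at -0.26 with library totals and -0.093 with upper-quartile factors, Mkrn3 at 0.24 with background subtracted, and Inpp5f at 0.056 by limma-voom. With no filter Blcap was at 0.015 and Impact at 0.048. Without 1 library the edgeR values ranged over -0.40 to 0.18 for Blcap, -0.063 to 1.13 for Copg2, -0.047 to 0.19 for Gnas, -0.63 to 0.19 for Impact, -1.07 to 0.96 for Inpp5f, -8.33 to 0.0087 for Mkrn3, -1.94 to 1.20 for Ppp1r9a, -0.87 to 0.61 for Snrpn and -0.62 to 0.042 for Ube3a. The causes were not tested. For 14 members expected background was at least 50% of the count in pup replicate 1, which limits what that library shows of them.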
